A study of Mus musculus with 12 samples.

Results

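Major histocompatibility complex (MHC) and antigen presentation genes were followed across 12 RNA sequencing libraries of cultured mouse bone marrow mesenchymal stem cells (MSCs), stromal cells with the capacity to become bone and fat cells. The set held every symbol starting with H2- that both deposited tables list, together with named partner genes, which came to 55 of the 18908 genes listed. Of these, 39 belong to the class I pathway (27 H2 heavy chain genes and 12 partners), 12 to the class II pathway (9 H2 genes, Cd74, Ciita and Ifi30) and 3 to costimulation (Cd80, Cd86 and Cd40). The remaining gene, H2-Ke6, lies in the H2 region but encodes a hydroxysteroid dehydrogenase. H2-T-ps, counted among the heavy chain genes, is a pseudogene by its symbol. All cultures were kept in DMEM with 10% FBS, and the labels give neither strain, sex nor age in weeks. Without the strain the H2 haplotype is unknown, and so is how well reads of each H2 gene map to the reference, which limits what every H2 level means. The age table held young vehicle replicates 2, 4 and 5 and old vehicle replicates 2, 8 and 9. The melatonin table held old vehicle replicates 1, 3 and 5 and old replicates 1, 3 and 5 labelled as treated with melatonin, a pineal hormone, at 1 µM for 24 h. By its title, the series is about osteoblast formation from senescent MSCs under melatonin and the part played in it by NSD2, a histone methyltransferase. The labels name no animals, and p-values therefore cover only the spread between these libraries, which may be technical.

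Class I molecules display peptides made in the cytosol. The proteasome cuts proteins, the TAP transporter moves peptides into the endoplasmic reticulum, and tapasin helps load them onto a heavy chain bound to beta-2 microglobulin. Interferon gamma switches nearly all of these genes on, adds the immunoproteasome subunits, and acts through the coactivator NLRC5. Class II molecules display peptides taken up from outside, are loaded with the help of the invariant chain CD74 and of H2-DM, and are made mainly by dendritic cells, B cells and activated macrophages under the coactivator CIITA. Cultured MSCs are known to carry class I and little or no class II unless stimulated with interferon gamma.

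Libraries of the 2 tables resembled each other across the labels, which bears on every comparison here. Over 14133 genes, each melatonin table library had 1 mutual best match in the age table, at r = 0.980 to 0.994, against r = 0.871 to 0.945 between libraries of a group within a table. Old vehicle replicates 1, 3 and 5 matched old vehicle replicates 2, 8 and 9 in that order, and the libraries labelled melatonin replicates 1, 3 and 5 matched young replicates 2, 4 and 5. The median squared difference of counts within matched pairs was still 1.77 to 6.02 times that of counting error alone. They are therefore not the same data deposited again, and whether matched libraries share a culture was not tested. Nor was it tested whether the titles of either table are correct, so every value under the melatonin label holds only for libraries so labelled. The 2 comparisons are therefore not independent, and their values are given side by side. Library totals ran from 20595378 to 21309663 estimated counts. Levels are given as TPM, which is scaled for gene length and library size. Stromal marker genes (12) summed to 4135 to 4550 TPM in old vehicle replicates 3, 5, 8 and 9 and to 6601 to 19148 TPM in the other 8 libraries. Not every stromal marker was present throughout, as Lepr did not exceed 0.72 TPM outside old vehicle replicates 1 and 2. Macrophage marker genes (14) summed to 19398 to 27460 TPM in old vehicle replicates 3, 5, 8 and 9 and to 111 to 1718 TPM in the other 8 libraries. Markers of other presenting and lymphoid cells were mostly low, with 5 to 7 of 8 dendritic cell genes, 4 to 6 of 6 B cell genes and 5 to 6 of 6 T or NK cell genes under 1 TPM in a library. Their summed levels ran from 3.73 to 33.03 TPM, from 0.23 to 26.95 TPM and from 0.21 to 70.7 TPM. Among their defining genes, Flt3, Clec9a, Ms4a1 and Cd3e did not exceed 0.43 TPM, while the dendritic cell gene Zbtb46 was at 1.94 to 3.26 TPM in every library, and Itgax, Cd22, Cd79b and Cd4 were highest in old vehicle replicates 8 and 3, with values given beside class II. In bulk RNA, fewer cells of a type and less RNA per cell cannot be told apart.

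The H2 genes lie close together, and 42 of the 55 members are on chromosome 17. Classical class I genes carry an upstream enhancer with an NF-kB site, and both classes share an upstream module whose Y box is bound by NF-Y. The 180 bases before the gene start are shown for 8 members from RefSeq (GRCm38.p6), because these genes carry the class I, class II and exceptional patterns described next. Capitals mark the NF-kB letters GGGATTCCC and the Y box letters CTGATTGG, or CCAATCAG where it is read on the other strand.
H2-K1 (chr17:34000348-34000527, minus strand): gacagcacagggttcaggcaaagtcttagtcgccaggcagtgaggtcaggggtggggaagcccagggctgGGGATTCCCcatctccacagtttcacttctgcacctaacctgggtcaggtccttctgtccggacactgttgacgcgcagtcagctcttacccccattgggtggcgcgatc
H2-D1 (chr17:35262914-35263093, plus strand): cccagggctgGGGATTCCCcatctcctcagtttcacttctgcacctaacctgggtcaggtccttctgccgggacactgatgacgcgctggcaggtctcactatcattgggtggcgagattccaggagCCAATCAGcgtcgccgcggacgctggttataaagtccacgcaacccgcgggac
H2-Q6 (chr17:35424670-35424849, plus strand): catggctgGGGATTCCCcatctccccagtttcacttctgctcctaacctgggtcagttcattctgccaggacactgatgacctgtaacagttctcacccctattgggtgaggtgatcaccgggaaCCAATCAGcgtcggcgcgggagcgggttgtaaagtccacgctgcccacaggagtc
H2-M9 (chr17:36642664-36642843, minus strand): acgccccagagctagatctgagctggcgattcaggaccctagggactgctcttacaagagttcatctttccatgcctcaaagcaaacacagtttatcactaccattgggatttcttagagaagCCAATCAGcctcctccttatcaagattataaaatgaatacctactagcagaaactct
H2-M1 (chr17:36672198-36672377, minus strand): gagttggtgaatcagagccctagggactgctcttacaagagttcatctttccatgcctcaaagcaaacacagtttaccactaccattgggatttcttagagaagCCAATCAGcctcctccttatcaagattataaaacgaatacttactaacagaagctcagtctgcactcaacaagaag
H2-Aa (chr17:34287824-34288003, minus strand): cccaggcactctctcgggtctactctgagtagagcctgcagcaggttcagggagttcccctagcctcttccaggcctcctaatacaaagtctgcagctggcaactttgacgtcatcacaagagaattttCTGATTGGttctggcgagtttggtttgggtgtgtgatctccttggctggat
H2-Eb1 (chr17:34305687-34305866, plus strand): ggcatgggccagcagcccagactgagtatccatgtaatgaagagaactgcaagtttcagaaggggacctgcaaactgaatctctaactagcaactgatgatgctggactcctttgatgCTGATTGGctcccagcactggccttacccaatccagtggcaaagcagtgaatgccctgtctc
H2-DMb1 (chr17:34153011-34153190, plus strand): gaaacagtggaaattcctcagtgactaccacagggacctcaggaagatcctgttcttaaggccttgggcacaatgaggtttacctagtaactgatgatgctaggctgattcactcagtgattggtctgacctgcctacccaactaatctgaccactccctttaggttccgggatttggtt
Promoters were matched by gene identifier for 41 of the 55 members, and the 250 bases before each start were searched on both strands. The Y box letters occurred in 17 of these 41, against 4.43% of all genes in the table, among them 11 of 21 class I heavy chain genes and 4 of 8 class II H2 genes. These matches are not independent sites. Those of Psmb9 and Tap1, on opposite strands, are the same bases, and H2-M1 and H2-M9 have closely similar upstream sequences. The NF-kB letters occurred in 4 of 41 (H2-K1, H2-D1, H2-Q6 and H2-Q7), against 0.352% of all genes. The interferon element letters GAAANNGAA occurred in 4 of 41 (B2m, Erap1, H2-T22 and H2-T23), against 8.18% of genes, and the gamma-activated site letters TTCNNNGAA in 3 of 41 (H2-DMb2, H2-M3 and Psmb8), against 8.13%. A match describes sequence only. H2-K1 has no Y box match and H2-DMb1 has no match to any of the 4 motifs in these windows. The search took exact letters and stopped at the gene start. In H2-D1 the NF-kB letters began 170 and the Y box letters 53 bases before the start. In H2-K1 the NF-kB letters began 110 or 124 bases before it, so the matching Y box stretch may lie past the window edge. The H2-DMb1 stretch holds gtgattgg, which differs from the Y box in its first letter. Neither non-match shows that a Y box is absent. At their best ungapped alignment, the H2-K1 and H2-D1 stretches share 107 of 120 bases, with an identical run of 40. H2-M9 and H2-M1, neighbouring genes, share 150 of 161 bases with an identical run of 60.

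Most members had higher mean levels in old than in young vehicle libraries and lower levels in the libraries labelled melatonin than in old vehicle, but no member passed the adjusted threshold in either comparison. Of the 36 members that passed the count filter in the age table, 32 had a positive and 4 a negative log2 change (old minus young), with a median of 1.51 beside -0.02 over all 13547 genes tested. For melatonin 37 members passed the filter, of which 3 had a positive and 34 a negative change (labelled melatonin minus old vehicle), with a median of -1.42 beside 0.02 over all 13471 genes. Members that pass the filter through the high libraries alone had to differ, so these counts are a description. On library-scaled counts, groups did not overlap for 4 members that were higher in old libraries (H2-DMb1, H2-M3, H2-T-ps and Tapbpl), against 9.28% of genes, although H2-T-ps overlaps in TPM (3.19 in the lowest old and 3.56 in the highest young library), and for 6 that were lower under the melatonin label (H2-Ab1, H2-DMb1, H2-M3, H2-T10, Tap2 and Tapbpl), against 9.78%. No member was separated in the other direction, against 9.23% of genes for age and 9.09% for melatonin. By edgeR's quasi-likelihood test with Benjamini-Hochberg adjustment, 0 genes were called in either comparison (percent called 0 in both), and adjusted p-values of members started at 0.315 and 0.286. At an unadjusted p under 0.05 there were 12 of 36 members against 13.8% of genes for age, and 18 of 37 against 14.2% for melatonin. DESeq2 called 10 of 36 members against 6.39% of genes for age, and 10 of 37 against 6.64% for melatonin. Limma-voom called 0 genes in both comparisons.

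**Figure D1:**
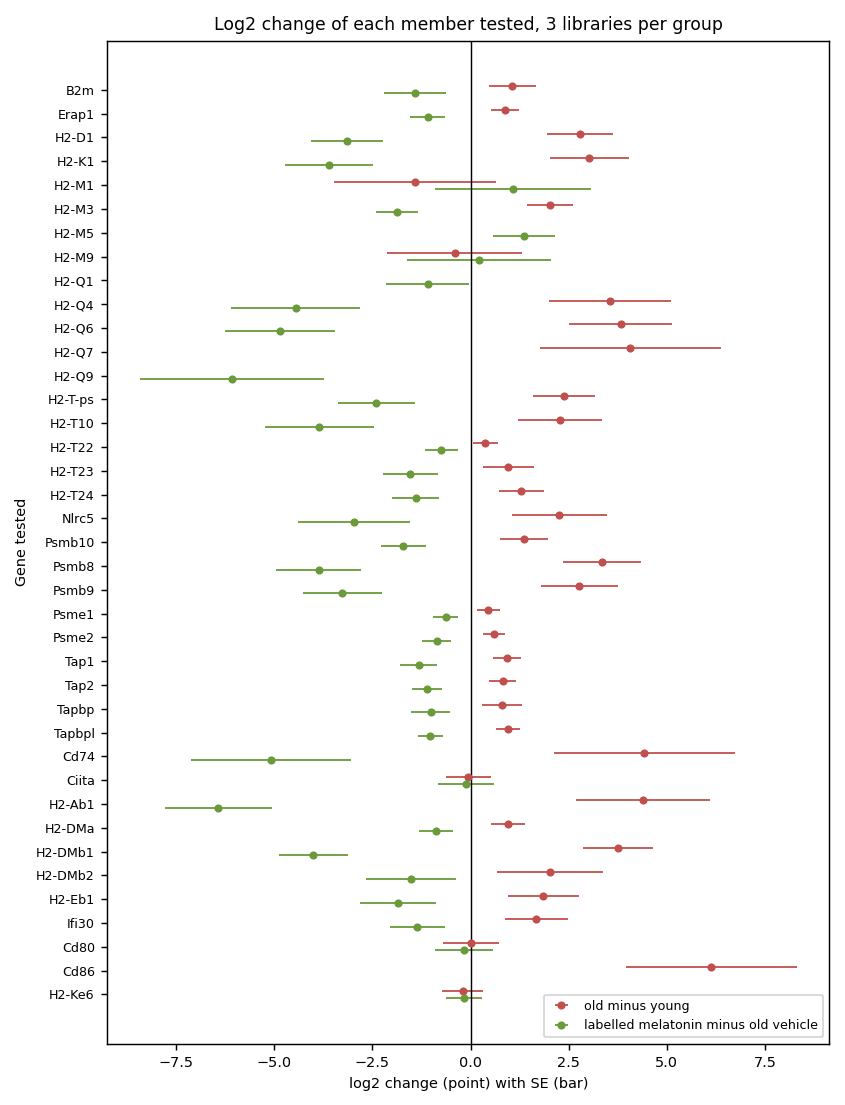
Log2 change (points) with its SE (bars) of each member that passed the count filter, as old minus young (red) and labelled melatonin minus old vehicle (green), with 3 libraries per group. For age 32 of 36 points lie above 0 and for melatonin 34 of 37 lie below it, and none passed the adjusted threshold.

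The group means hide a split within the old vehicle group. Of the 45 members with a count of 10 or more in some library, 31 had their 4 highest levels (TPM) in old vehicle replicates 3, 5, 8 and 9, against 11.4% of the 14905 genes with such a count. This held for 24 of 30 class I and 5 of 11 class II members. The same 4 libraries had the highest macrophage marker sums, and the part of macrophage transcripts in the differences between groups was not tested.

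**Figure D2:**
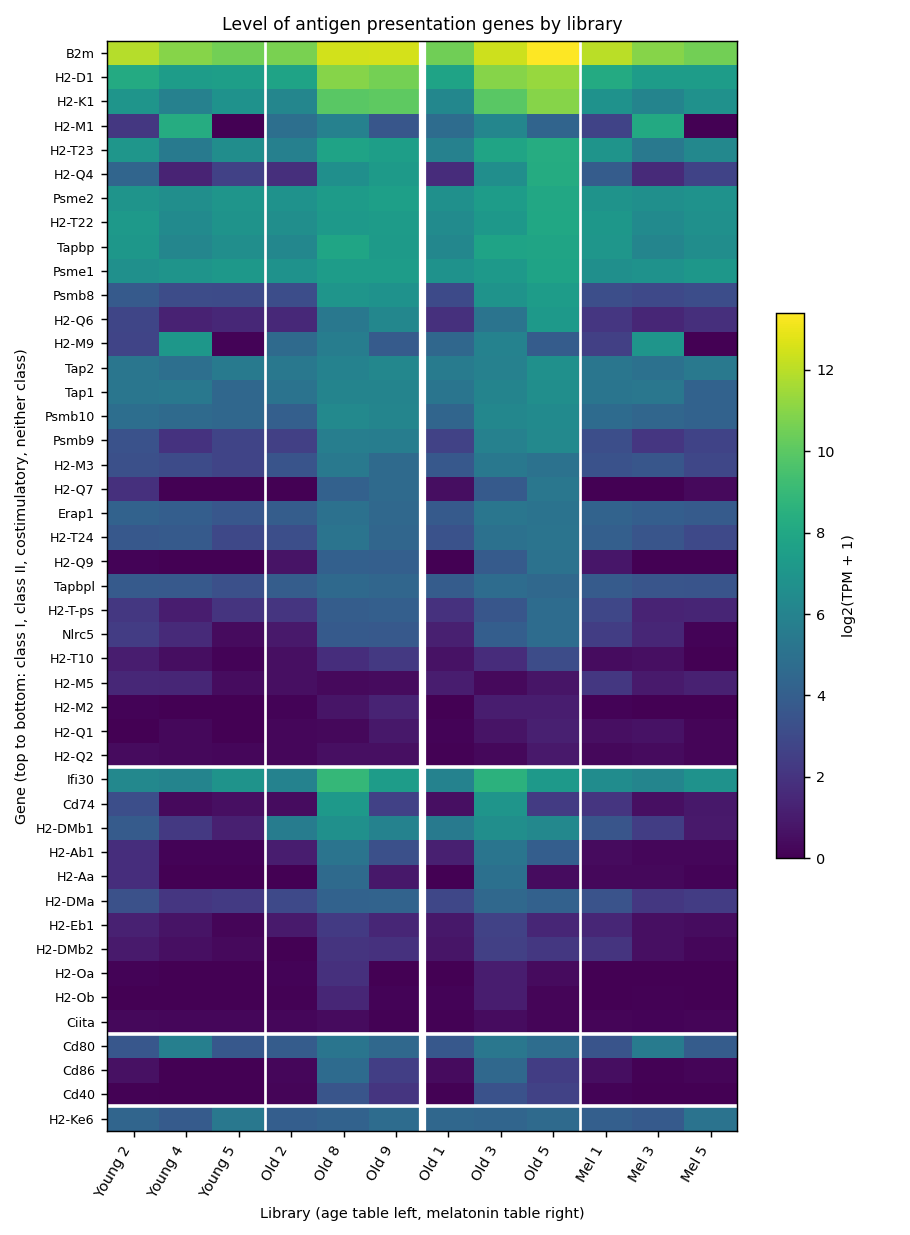
Level of the 45 members with a count of 10 or more in some library, as log2(TPM + 1) (colour), by library (columns; Mel means labelled melatonin, the thick line divides the tables). Most class I rows are brightest at Old 8, Old 9, Old 3 and Old 5, H2-DMb1 is bright in all 6 old vehicle columns, and H2-M1 and H2-M9 are brightest at Young 4 and Mel 3.

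The classical class I heavy chains H2-K1 and H2-D1, which present peptides to CD8 T cells, were among the most abundant members. H2-K1 (gene identifier 14972) was at 70.4, 992.5 and 1060.0 TPM in old vehicle replicates 2, 8 and 9, and at 125, 59.1 and 112.5 TPM in young replicates 2, 4 and 5. In the melatonin table it was at 71.7, 988 and 1983 TPM in old vehicle replicates 1, 3 and 5, and at 112, 64.4 and 109 TPM in the libraries labelled melatonin. Old vehicle replicates 3, 5, 8 and 9 were far above the other 8 libraries, and replicates 1 and 2 fell inside the range of the young libraries and those labelled melatonin, so the groups overlapped. The log2 change was 3.03 ± 1.00 (SE, adjusted p = 0.315) for age and -3.59 ± 1.12 (SE, adjusted p = 0.286) for melatonin. H2-D1 (14964) was at 216, 2022 and 1572 TPM in old and 293, 167.5 and 178 TPM in young libraries of the age table. Its levels were 216, 1992.4 and 2565 TPM in old vehicle and 290.1, 171 and 167.5 TPM under the melatonin label. The log2 changes were 2.79 ± 0.84 (SE, adjusted p = 0.315) and -3.14 ± 0.91 (SE, adjusted p = 0.286), and again the groups overlapped through replicates 1 and 2. Together these 2 genes made up 78.8% to 80.3% of the summed heavy chain level in old vehicle replicates 3, 5, 8 and 9, 27.3% and 29.5% in young replicate 4 and the library labelled melatonin replicate 3, and 55.1% to 57.6% in the other 6 libraries.

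**Figure D3:**
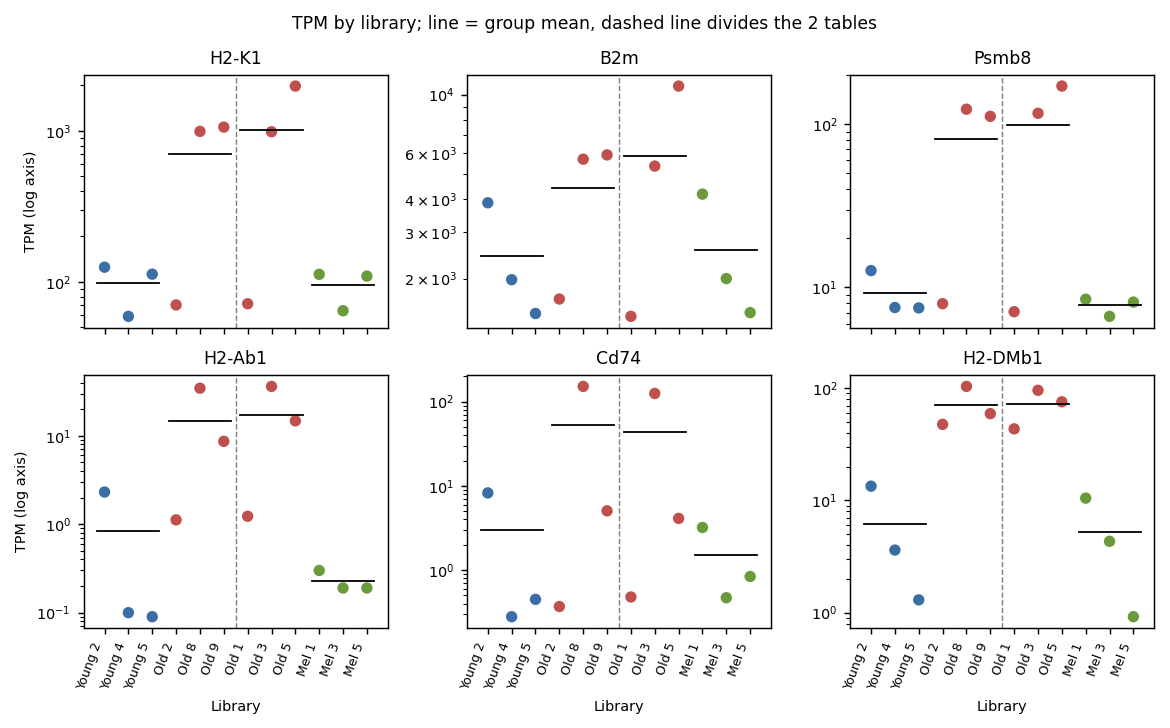
TPM of 6 members in each library on log axes, with a line at the mean of each group of 3 (blue young, red old vehicle, green labelled melatonin); the dashed line divides the tables. H2-K1, B2m and Psmb8 are high in 4 of 6 old vehicle libraries, Cd74 stands out in Old 8 and Old 3, and H2-DMb1 is above 43 TPM in all 6 old vehicle libraries and below 14 TPM elsewhere.

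Q region genes, among them the Qa-2 genes H2-Q7 and H2-Q9, had the largest log2 changes of the class I members tested, with 4.06 ± 2.303 (SE, adjusted p = 0.465) for H2-Q7 in the age comparison and -6.07 ± 2.34 (SE, adjusted p = 0.336) for H2-Q9 in the melatonin comparison. H2-Q7 did not pass the count filter for melatonin, nor H2-Q9 for age. Both had counts of 0 in several libraries of the comparison tested. The size of these changes thus rests on values near 0, and their rank is a description. H2-Q4 (15015) was at 2.46, 102 and 157 TPM in old and 19.5, 1.54 and 4.93 TPM in young libraries, and at 2.21, 96.3 and 306 TPM in old vehicle against 14.1, 2.03 and 5.39 TPM in libraries labelled melatonin. Its log2 changes were 3.55 ± 1.54 (SE, adjusted p = 0.376) and -4.45 ± 1.65 (SE, adjusted p = 0.326). H2-Q6 (110557) reached 1.87, 40 and 72.5 TPM in old and 6.05, 1.44 and 1.85 TPM in young libraries, and 2.58, 34.99 and 145 TPM in old vehicle against 3.37, 1.68 and 2.47 TPM in libraries labelled melatonin. H2-Q7 and H2-Q9 were at 12.97 TPM or more in old vehicle replicates 3, 5, 8 and 9 and at 2.63 TPM or less elsewhere. H2-Q1, H2-Q2 and H2-Q10 did not exceed 1.23 TPM in any library. The Q region genes are related copies whose transcripts were not compared here. Their counts are estimated, so reads may have been divided among them in ways the tables do not show. With the counts of all class I heavy chain genes summed into 1 feature, the log2 change was 2.18 for age and -2.64 for melatonin, neither called.

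The T and M regions hold nonclassical class I genes, of which H2-M3 had groups that did not overlap in either table. H2-T23 (15040), the Qa-1 chain recognised by NK cell receptors, was at 56.03, 217 and 182.5 TPM in old and 128, 42.9 and 93.7 TPM in young libraries. It was at 57.7, 224 and 312 TPM in old vehicle and 119, 42.4 and 73.9 TPM in libraries labelled melatonin. Its log2 changes were 0.96 ± 0.64 (SE, adjusted p = 0.524) and -1.54 ± 0.70 (SE, adjusted p = 0.384). H2-T22 (15039), a ligand of some gamma delta T cells, had log2 changes of 0.38 ± 0.33 (SE, adjusted p = 0.626) and -0.74 ± 0.43 (SE, adjusted p = 0.468), and its level stayed between 83.8 and 251 TPM in all libraries. H2-M3 (14991), which presents formylated peptides of bacteria and mitochondria, was at 9.98, 42.1 and 23.7 TPM in old and 8.49, 7.39 and 5.77 TPM in young libraries, with no overlap. The melatonin table held 11.8, 39.5 and 32.5 TPM in old vehicle and 9.34, 11.03 and 6.14 TPM under the melatonin label, also with no overlap. Its log2 changes were 2.02 ± 0.58 (SE, adjusted p = 0.315) and -1.87 ± 0.53 (SE, adjusted p = 0.286).

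The neighbours H2-M1 and H2-M9, from a family known for its expression in sensory neurons of the vomeronasal organ, followed another order than most other class I genes. H2-M1 (224756) was at 29.03, 57.6 and 11.1 TPM in old and 3.49, 314 and 0 TPM in young libraries. In the melatonin table it was at 25.9, 70.9 and 18.7 TPM in old vehicle and 5.37, 283 and 0 TPM in libraries labelled melatonin. H2-M9 (14997) was at 24.03, 50.3 and 13.3 TPM in old and 5.75, 135.5 and 0.10 TPM in young libraries, and at 20.9, 59.6 and 14.1 TPM in old vehicle and 4.85, 124.5 and 0 TPM in libraries labelled melatonin. Both were highest in young replicate 4 and its match, labelled melatonin replicate 3, and lowest in young replicate 5 and its match, where at most 1 count was found. Groups overlapped, and the log2 changes were -1.41 ± 2.06 (SE, adjusted p = 0.775) and 1.08 ± 1.98 (SE, adjusted p = 0.815) for H2-M1 and -0.40 ± 1.72 (SE, adjusted p = 0.934) and 0.22 ± 1.82 (SE, adjusted p = 0.966) for H2-M9. Summed macrophage markers were low at both ends of this order, at 111 and 179 TPM in the 2 libraries with the highest and at 225 and 291 TPM in the 2 with the lowest H2-M1 level. Only the upstream sequences of these genes were compared, not their transcripts, so how well reads tell them apart is not known. H2-M5 also departed from most class I genes, at low levels. It was lowest in old vehicle replicates 3 and 8 (0.27 TPM) and highest in labelled melatonin replicate 1 (3.55 TPM, 46.6 counts). Tested for melatonin only, it had the largest positive change of class I there, 1.36 ± 0.79 (SE, adjusted p = 0.467). No library exceeded 1 TPM for 10 class I heavy chain genes, which were H2-Bl, H2-Q2, H2-Q10, H2-T3, H2-T18 and the listed H2-M10 genes.

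The partner genes of class I loading had the same direction as most heavy chains. All 12 had higher means in old than in young libraries (median log2 change 0.94, beside 2.27 for the 13 heavy chain genes tested) and all 12 lower ones under the melatonin label (median -1.22, beside -1.87 for 15 heavy chain genes), and none was called. B2m (12010), the light chain of every class I molecule, was the most abundant member, at 1671, 5682 and 5898 TPM in old and 3879, 1979 and 1472 TPM in young libraries, and at 1436.5, 5348 and 10773 TPM in old vehicle and 4185, 1999 and 1484 TPM in libraries labelled melatonin. Young replicate 2 lay well above old vehicle replicate 2, and the log2 changes were 1.07 ± 0.61 (SE, adjusted p = 0.467) and -1.42 ± 0.78 (SE, adjusted p = 0.449). The peptide transporter subunits Tap1 and Tap2 had log2 changes of 0.92 ± 0.36 (SE, adjusted p = 0.349) and 0.82 ± 0.35 (SE, adjusted p = 0.368) for age, and -1.32 ± 0.47 (SE, adjusted p = 0.315) and -1.11 ± 0.38 (SE, adjusted p = 0.302) for melatonin. Tapbp, which encodes tapasin, differed by 0.81 ± 0.51 (SE, adjusted p = 0.507) and -1.02 ± 0.51 (SE, adjusted p = 0.414), and the trimming peptidase gene Erap1 by 0.87 ± 0.36 (SE, adjusted p = 0.365) and -1.09 ± 0.44 (SE, adjusted p = 0.347). Tapbpl (213233), which encodes the tapasin-related editor TAPBPR, was at 14.6, 23.04 and 20.5 TPM in old and 13.1, 12.4 and 8.73 TPM in young libraries. It was at 14.2, 25.3 and 22.4 TPM in old vehicle and 13.6, 10.7 and 10.3 TPM in libraries labelled melatonin. All 6 old vehicle libraries were above all 6 others, with log2 changes of 0.96 ± 0.30 (SE, adjusted p = 0.315) and -1.03 ± 0.32 (SE, adjusted p = 0.286). Nlrc5 (434341), the class I coactivator, was at 0.86, 13.1 and 12.6 TPM in old and 4.23, 2.04 and 0.30 TPM in young libraries, and at 1.29, 14.97 and 25.2 TPM in old vehicle and 4.41, 1.72 and 0.10 TPM in libraries labelled melatonin.

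The immunoproteasome subunits replace the constitutive catalytic subunits of the proteasome and change which peptides it makes. Psmb8 (16913), which replaces Psmb5, was at 7.95, 123.5 and 112 TPM in old and 12.7, 7.53 and 7.49 TPM in young libraries, and at 7.10, 117 and 171 TPM in old vehicle and 8.47, 6.65 and 8.13 TPM in libraries labelled melatonin. Its log2 changes were 3.35 ± 1.00 (SE, adjusted p = 0.315) and -3.87 ± 1.09 (SE, adjusted p = 0.286), those of Psmb9 2.76 ± 0.98 (SE, adjusted p = 0.321) and -3.26 ± 1.01 (SE, adjusted p = 0.286), and those of Psmb10 1.36 ± 0.61 (SE, adjusted p = 0.387) and -1.71 ± 0.57 (SE, adjusted p = 0.298). Psmb8, Psmb9 and Psmb10 together made up 4.10, 29.1 and 29.2 percent of the summed level of these subunits and the constitutive Psmb5, Psmb6 and Psmb7 in old vehicle replicates 2, 8 and 9, and 8.14, 4.18 and 5.95 percent in the young libraries. The share was 4.52, 30.03 and 36.9 percent in old vehicle replicates 1, 3 and 5 and 6.85, 3.57 and 5.56 percent in the libraries labelled melatonin. The mean differed by 14.7 percentage points for age (exact permutation p = 0.4, two-sided) and by -18.5 points for melatonin (exact permutation p = 0.3), where 3 libraries against 3 cannot give a p under 0.1. The difference was 23.1 points without old vehicle replicate 2 for age, and -28.1 points without replicate 1 and -11.9 points without replicate 5 for melatonin. The activator subunit genes Psme1 and Psme2 differed by 0.46 ± 0.28 (SE, adjusted p = 0.496) and 0.59 ± 0.28 (SE, adjusted p = 0.413) for age and by -0.64 ± 0.32 (SE, adjusted p = 0.417) and -0.86 ± 0.37 (SE, adjusted p = 0.364) for melatonin.

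**Figure D4:**
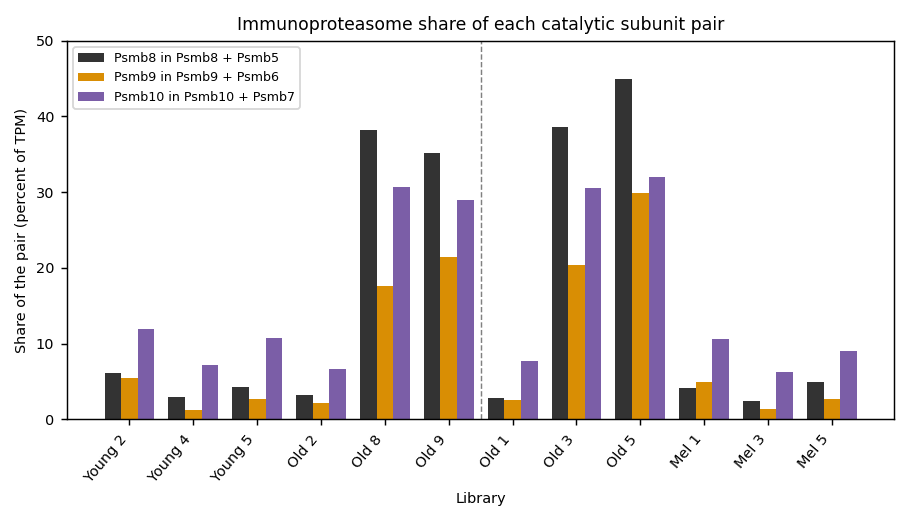
Share of each immunoproteasome subunit in the sum with the constitutive subunit it replaces, in percent of TPM, by library; the dashed line divides the tables. Psmb8 takes 35.2% to 45.0% of its pair in Old 8, Old 9, Old 3 and Old 5 and at most 6.12% in the other libraries.

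The class II chains H2-Aa and H2-Ab1 and the invariant chain gene Cd74 were highest in old vehicle replicates 8 and 3, a matched pair. So were H2-DMb1 and Ifi30, which are described further on with H2-DMa. The lowest level in any library was 0 TPM for H2-Aa, 0.09 TPM for H2-Ab1 and 0.28 TPM for Cd74. It was 0.92 TPM for H2-DMb1, 3.30 TPM for H2-DMa and 59.6 TPM for Ifi30. H2-Ab1 (14961), the beta chain of I-A, was at 1.12, 34.5 and 8.65 TPM in old and 2.31, 0.10 and 0.09 TPM in young libraries. It was at 1.23, 36.2 and 14.8 TPM in old vehicle and 0.30, 0.19 and 0.19 TPM in libraries labelled melatonin, without overlap in that table. Its log2 changes were 4.39 ± 1.70 (SE, adjusted p = 0.346) and -6.42 ± 1.37 (SE, adjusted p = 0.286). Its partner H2-Aa was at 0, 24.2 and 0.83 TPM in old, 2.35, 0 and 0 TPM in young, 0, 29.6 and 0.37 TPM in old vehicle of the other table and 0.21, 0.20 and 0.10 TPM in libraries labelled melatonin, and did not pass the count filter in either table. A count of 0 allows up to 3 counts, by counting error only. Cd74 (16149), the invariant chain, was at 0.37, 152 and 5.06 TPM in old and 8.26, 0.28 and 0.45 TPM in young libraries, and at 0.48, 125 and 4.11 TPM in old vehicle and 3.21, 0.47 and 0.84 TPM in libraries labelled melatonin. These levels rest on 1852 counts in old vehicle replicate 8 and 60 in replicate 9, and on 1477 in replicate 3 and 55 in replicate 5. The Cd74 log2 changes were 4.43 ± 2.31 (SE, adjusted p = 0.44) and -5.08 ± 2.03 (SE, adjusted p = 0.347), and each rested on 1 library, since they were 0.065 without old vehicle replicate 8 and -0.94 without replicate 3. Without young replicate 2 the age value was 7.36. Leaving out replicate 8 moved H2-Ab1 to 2.75 and H2-Eb1 to 1.08 for age, and leaving out replicate 3 moved H2-Eb1 to -0.73 for melatonin. H2-Eb1 did not exceed 5.35 TPM in any library, with log2 changes of 1.85 ± 0.91 (SE, adjusted p = 0.421) and -1.85 ± 0.97 (SE, adjusted p = 0.43). Ciita (12265), the class II coactivator, did not exceed 0.34 TPM anywhere and differed by -0.06 ± 0.57 (SE, adjusted p = 0.972) and -0.13 ± 0.72 (SE, adjusted p = 0.949).

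Class I and class II levels separated old vehicle libraries in different ways. The summed class I heavy chain level was 520.5, 3756 and 3339.8 TPM in old vehicle replicates 2, 8 and 9 and 755, 831 and 525 TPM in young libraries, and 510.2, 3720.0 and 5769.9 TPM in old vehicle replicates 1, 3 and 5 and 720.2, 798.5 and 481 TPM in libraries labelled melatonin. The summed class II chain level (H2-Aa, H2-Ab1, H2-Eb1 and H2-Eb2) was 2.05, 62.6 and 11.25 TPM in old and 6.02, 0.93 and 0.34 TPM in young libraries, and 2.11, 71.1 and 16.9 TPM in old vehicle and 2.27, 0.86 and 0.67 TPM in libraries labelled melatonin. Old vehicle replicates 8 and 9 were close in class I and in summed macrophage markers (24640 and 23864 TPM). The level in replicate 8 over that in replicate 9 was 30.0-fold for Cd74 and 29.2-fold for H2-Aa. It was 3.99-fold for H2-Ab1, 2.25-fold for H2-Eb1, 1.12-fold for H2-DMb2 and 0.96-fold for H2-DMa. Replicates 3 and 5 had macrophage sums of 27460 and 19398 TPM and were less close in class I, with H2-K1 at 0.50-fold. Replicate 3 over replicate 5 was 30.4-fold for Cd74, and 79.9-fold for H2-Aa, which had 4 counts in replicate 5. It was 2.45-fold for H2-Ab1, 3.07-fold for H2-Eb1, 1.38-fold for H2-DMb2 and 1.30-fold for H2-DMa. Replicates 8 and 3 were also the only libraries with Itgax (28.7 and 27.2 TPM), Cd4 (70.2 and 56.4 TPM) and Cd22 (24.3 and 19.6 TPM) above 2 TPM, and the B cell gene Cd79b was at 2.54 and 3.28 TPM in them and at 0.27 TPM or less elsewhere. In these 2 libraries Zbtb46 was at 2.65 and 1.98 TPM, and Flt3, Clec9a, Ms4a1 and Cd3e were at 0.19 TPM or less. The part of other cell types in the class II levels was not tested. On the log2(TPM + 1) scale the class I sum differed by 1.44 for age (exact permutation p = 0.4, two-sided) and by -1.77 for melatonin (exact permutation p = 0.3), and the class II sum by 2.34 (exact permutation p = 0.2) and -2.88 (exact permutation p = 0.2). The class I difference was 2.36 without old vehicle replicate 2 and 0.93 without replicate 8 for age, and -2.83 without replicate 1 and -1.08 without replicate 5 for melatonin. The class II difference was 1.22 without replicate 8 for age and -1.78 without replicate 3 for melatonin.

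**Figure D5:**
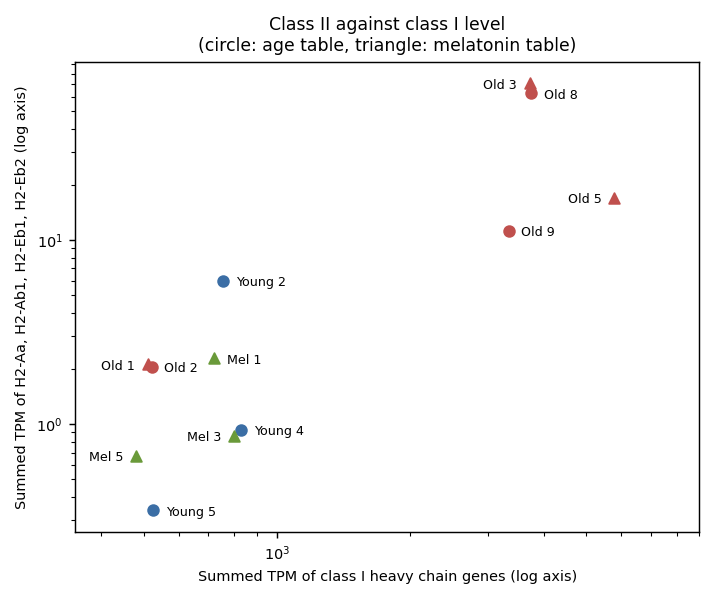
Summed TPM of class I heavy chain genes (x, log axis) against that of class II chain genes (y, log axis) for each library (circle, age table; triangle, melatonin table). Old 8 and Old 3 lie at the top right at 62.6 and 71.1 class II TPM, Old 9 and Old 5 share their high class I level at 11.25 and 16.9 class II TPM, and the other libraries lie at the lower left.

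The H2-DM genes encode the editor that exchanges peptides on class II, and H2-O its inhibitor. H2-DMb1 (14999) was at 47.6, 104 and 59.3 TPM in old and 13.4, 3.61 and 1.30 TPM in young libraries, with no overlap. It was at 43.4, 95.7 and 75.6 TPM in old vehicle and 10.5, 4.32 and 0.92 TPM in libraries labelled melatonin, again with no overlap. Old vehicle replicates 1 and 2, which were low for class I and for Cd74, were 3 or more times as high as any young library or library labelled melatonin. The log2 changes were 3.75 ± 0.89 (SE, adjusted p = 0.315) and -4.00 ± 0.87 (SE, adjusted p = 0.286), and DESeq2 gave adjusted p = 0.000456 and adjusted p = 6.46e-05. Of the 45 members with a count of 10 or more in some library, 2 (H2-DMb1 and Tapbpl) had all 6 old vehicle libraries above all others. This was near the share of 3.11% among the 14905 genes with such a count. For Tapbpl the margin was small, at 14.2 TPM in the lowest old vehicle library and 13.6 TPM in the highest other library. The neighbouring H2-DMb2, which encodes another DM beta chain, was at 0, 3.10 and 2.78 TPM in old and 0.97, 0.45 and 0.27 TPM in young libraries, with log2 changes of 2.02 ± 1.36 (SE, adjusted p = 0.525) and -1.52 ± 1.16 (SE, adjusted p = 0.562), and its groups overlapped in both tables. The alpha chain gene H2-DMa differed by 0.95 ± 0.42 (SE, adjusted p = 0.383) and -0.88 ± 0.44 (SE, adjusted p = 0.41). H2-Oa and H2-Ob did not exceed 2.67 TPM and were highest in old vehicle replicate 8. Ifi30 (65972), a thiol reductase of the class II compartment, was at 59.6, 488 and 167 TPM in old, 75.5, 64.5 and 116 TPM in young, 61.1, 394.5 and 148.5 TPM in old vehicle of the other table and 89.8, 66.5 and 114 TPM in libraries labelled melatonin.

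The costimulatory genes did not share a pattern. Cd86 (12524), a ligand of CD28, was at 0.18, 24.7 and 4.58 TPM in old and 0.51, 0 and 0 TPM in young libraries, with a log2 change of 6.13 ± 2.18 (SE, adjusted p = 0.32), and at 0.32, 21.7 and 4.32 TPM in old vehicle and 0.43, 0.05 and 0.13 TPM in libraries labelled melatonin. Cd40 had the same 4 highest libraries, at 3.21 to 10.5 TPM, and was at 0.14 TPM or less in the other 8. Cd80 (12519), the other CD28 ligand, was at 13.8, 35.9 and 22.1 TPM in old and 11.4, 53.4 and 12.1 TPM in young libraries, and at 11.7, 39.02 and 26.9 TPM in old vehicle and 9.99, 47.2 and 13.9 TPM in libraries labelled melatonin. It was highest in young replicate 4 and labelled melatonin replicate 3, and its log2 changes were 0.01 ± 0.70 (SE, adjusted p = 0.996) and -0.17 ± 0.74 (SE, adjusted p = 0.93). Cd86 and Cd40 in the melatonin table and Cd40 in the age table did not pass the count filter. H2-Ke6 differed by -0.20 ± 0.53 (SE, adjusted p = 0.888) and -0.17 ± 0.46 (SE, adjusted p = 0.881).

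Other genes of the pathway were counted in the same fits, and none was called. All 10 measured proteases and regulators of the class II compartment were higher in old libraries (median log2 change 1.46) and lower under the melatonin label (median -1.53). Among them Ctss, which encodes the protease that removes the invariant chain, was at 52.8, 1309 and 840.5 TPM in old and 55.9, 5.06 and 7.90 TPM in young libraries, with a log2 change of 5.24 ± 1.56 (SE) for age and -5.21 ± 1.51 for melatonin. Of 13 interferon gamma targets 11 were higher in old libraries (median 0.73) and 12 lower under the melatonin label (median -1.35), and of 13 type I interferon targets 10 were higher (median 0.85) and 12 lower (median -1.60). The GTPase gene Gbp5 was at 4.58, 10.7 and 7.74 TPM in old and 1.05, 0.82 and 0.04 TPM in young libraries, without overlap, with log2 changes of 3.84 ± 0.99 and -4.53 ± 0.82. The 19 regulators of MHC genes were divided, with 11 higher and 8 lower for age (median 0.10) and 7 higher and 12 lower for melatonin (median -0.33). Irf8, a transcription factor of myeloid cells, differed by 4.81 ± 1.503 and -5.06 ± 1.33, and the interferon gamma receptor gene Ifngr2 by 0.81 ± 0.26 and -0.95 ± 0.27. Socs1, counted both here and as an interferon gamma target, was lower in old libraries without overlap, at -1.10 ± 0.41. Of 17 constitutive proteasome genes 10 were higher for age (median 0.10) and 8 for melatonin (median -0.15), and of 10 loading chaperones 6 were higher in each (medians 0.05 and 0.04). Other class I-like genes (8 tested) had 6 higher for age (median 0.71) and 6 lower for melatonin (median -0.49). Other costimulatory and inhibitory ligands had 7 of 8 higher for age (median 1.37) and 7 of 9 lower for melatonin (median -2.02).

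The comparisons were also fitted without the 2 old vehicle libraries of each table that stand apart. These libraries hold the highest levels of most members, so their removal had to bring the differences toward 0, and these values describe how far the results rest on them, not a cause. Without replicates 8 and 9 the lone old vehicle replicate 2 is assumed to vary like the young group, and the median log2 change of class I was -0.27 and that of class II -0.19. The medians of these fits are over the members that passed the filter in them, which need not be those of the full fit. The sign counts are over members tested in both fits. Here the sign turned for 16 of 25 class I and 3 of 8 class II members. Without replicates 3 and 5 the medians were 0.17 and 0.27, and the sign turned for 15 of 26 class I and 5 of 8 class II members. H2-DMb1 kept its direction and most of its size, at 3.04 ± 1.14 for age and -3.14 ± 1.11 for melatonin, and H2-Ab1 was at -2.43 ± 1.07 for melatonin. H2-K1 was at -0.48 and 0.39, and Psmb8 at -0.18 and 0.09. Leaving out the low old vehicle replicate 1 instead gave 602 genes called for melatonin, among them 9 class I, 1 class II and 2 costimulatory members. The full fit tested 13471 genes and 37 members. The numbers tested without replicate 1 are not given here, so no share over all genes stands beside these counts. As replicate 1 was low for most members, its removal had to enlarge the differences, so these counts are a description. In the full fit Cd80 was the only costimulatory member tested, so at least 1 of the 2 passed the filter only without replicate 1. No other single library left out gave a called member in either comparison.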

How the data were processed

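Per the labels' protocols, Trizol was used for RNA extraction and libraries followed the BGISEQ500 protocol. The estimated counts deposited by the authors (18908 genes per table) need not be whole, and 67.7% lay within 0.005 of a whole number. The tables deposited by the authors also give TPM and FPKM, which correct for gene length and depth. BWA, Bowtie2, RSEM and the mm39 build are named in the submitters' processing notes without roles or versions, and strand handling is not given in the sources used here. Headers reading Vel were taken as the Veh titles of equal letter and number.

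After rounding of the estimated counts, filterByExpr (minimum count 10, minimum total 15) chose the genes tested, and each table was fitted alone with TMM and edgeR's quasi-likelihood test (edgeR 4.0.16, R 4.3.3), with Benjamini-Hochberg adjustment over all genes tested and a threshold of 0.05. The fit was tested on simulated data. Log2 changes carry standard errors (SE). TPM served as the level of each library, and sums and shares of TPM were compared by exact two-sided permutation tests. FPKM served only as an alternative. DESeq2 1.42.0, limma-voom (limma 3.58.1), no filter, an adjusted p under 0.1, other scales, family sums, left-out libraries and a replicate block were alternatives. Replicate numbers are shared by the old vehicle and labelled melatonin libraries. Deviations of same-numbered libraries from their group means correlated at r = -0.23, 0.10 and -0.03, and those of unlike numbers at r = -0.21 to 0.29. With 3 libraries per group, these values cannot decide whether the numbers pair the libraries. Promoters came from RefSeq on GRCm38.p6, while the notes name mm39, so they are tied to members by gene identifier only.

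The members and gene lists were chosen with earlier results of these data known. The named genes are every partner gene and the H2 genes of the best known functions, the other H2 genes by range or where highest or lowest, and up to 4 genes per pathway list by smallest p. The members chosen for promoter display were picked after their values were seen. Total estimated counts per library were 20595378 to 21309663, and limits for a count of 0 cover counting error only.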

Additional observations from a re-analysis of the deposited data

How the results depend on the processing

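For age, DESeq2 called 865 genes, among them 7 class I, 2 class II and 1 costimulatory members, and the fit with all old vehicle libraries called 46 genes and no member. For melatonin, DESeq2 called 895 genes with 8 class I and 2 class II members. With single libraries left out, the age comparison called 0 genes each time. The melatonin comparison called 0 to 602 genes, 0 to 9 class I, 0 to 1 class II and 0 to 2 costimulatory members. The high values came without old vehicle replicate 1, whose removal had to enlarge the differences of most members. No filter, limma-voom and an adjusted p under 0.1 called no member. Why the tools differ was not tested.

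Without old vehicle replicates 8 and 9, the age medians were -0.27 (class I) and -0.19 (class II), the class I sum differed by -0.407 on the log2 scale and the immunoproteasome share by -1.99 points. In that setting single log2 changes turned to -0.498 for B2m, -2.94 for Cd74, -1.02 for Cd80, -0.0374 for Erap1, -0.515 for Ifi30, -1.28 for Nlrc5, -0.588 for Psmb10, -0.18 for Psmb8, -0.302 for Psmb9, -0.0976 for Psme1, -0.452 for Tapbp, -0.476 for H2-K1, -1.76 for H2-Q4, -0.241 for H2-T22, -0.636 for H2-T23 and -5.81 for H2-DMb2, whose lone old library had a count of 0. Without old vehicle replicates 3 and 5, the melatonin medians were 0.17 and 0.27, the class I sum differed by 0.352 and the share by 0.802 points. Single changes turned to 0.764 for B2m, 1.40 for Cd74, 1.19 for Cd80, 1.64 for Ciita, 0.206 for Erap1, 0.529 for Ifi30, 0.623 for Nlrc5, 0.0423 for Psmb10, 0.0873 for Psmb8, 0.128 for Psmb9, 0.00626 for Psme1, 0.031 for Psme2, 0.36 for Tapbp, 0.39 for H2-K1, 1.61 for H2-Q4, 0.244 for H2-T22, 0.392 for H2-T23, 0.0105 for H2-Eb1 and 0.66 for H2-DMb2. H2-Q9 could not be fitted there.

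Cd80 and Ciita had changes near 0 whose sign moved with the setting. For age Cd80 was at -0.0057 with DESeq2, -0.025 without a filter and -0.490 to 1.04 with single libraries left out, and Ciita at -0.625 to 0.298. For melatonin Cd80 ran from -1.14 to 0.323 and Ciita from -0.561 to 0.545, with 0.146 by limma-voom. With the replicate block Ciita was at 0.0865, Cd74 at -2.65, 0 genes were called, the medians were -1.46 (class I) and -2.001 (class II), and the class I sum differed by -1.77 (exact permutation p = 0.5 over sign flips of 3 pairs). The block changed no call. The labels do not say whether same-numbered old vehicle and labelled melatonin libraries share a source.

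Outside old vehicle replicates 3 and 8, H2-Aa had 0 to 23 counts and H2-Eb1 2 to 28 counts per library, so small differences among those libraries could not be resolved.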
